A study of Mus musculus with 18 samples.

Results

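Lymphocyte homing and egress genes were followed in splenic B cells: the transcription factor gene *Klf2*, the sphingosine 1-phosphate (S1P) receptor genes *S1pr1*, *S1pr3* and *S1pr4*, the chemokine receptor genes *Ccr7*, *Cxcr4*, *Cxcr5* and *Ccr6*, and the oxysterol receptor gene *Gpr183*. These 9 genes were taken by name from a table of 16545 genes, and all 9 had a row. Total B cells were purified from the spleens of mice with 1 copy of a Cre active in B cells (control, labelled CON) and of mice with the same Cre and *Zbtb24* loxp/loxp (B-CKO), 3 mice per genotype on a C57BL/6 background, and RNA was sequenced at 0 h, 24 h and 48 h of culture with LPS, a bacterial endotoxin that stimulates B cells through TLR4, which gave 18 libraries in 6 groups of 3. Both genotypes thus carry the Cre, and B-CKO cells in addition lose the floxed exon of *Zbtb24*. The age and sex of these mice and the dose of LPS in these cultures are not given in the sources used here, and no culture without LPS was analysed, so that LPS, time in culture and removal from the spleen cannot be told apart. Values are FPKM, fragment counts scaled to the length of the transcript and to the mapped reads of the library.

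Homing receptors place B cells within lymphoid tissue, and egress receptors let them leave it. KLF2 is a transcription factor of quiescent lymphocytes that is known for keeping *S1pr1* expressed, and S1PR1 draws lymphocytes along the S1P gradient from tissue into blood or lymph. CCR7 leads B cells towards the T cell zone, CXCR5 into the follicle and CXCR4 towards CXCL12 in bone marrow and the germinal center dark zone, while GPR183 (also called EBI2) guides activated B cells to the outer follicle along an oxysterol gradient.

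Promoter sequence is shown for *Klf2*, *Cxcr4* and *Gpr183*, which fell together after LPS and differ widely in base composition. Each line gives the 250 bases before the RefSeq start site on GRCm38.p6, the assembly also named mm10, written 5′ to 3′ on the strand of the gene. *Klf2* is on the plus strand (window chr8:72318812-72319061), and *Cxcr4* (chr1:128592300-128592549) and *Gpr183* (chr14:121965194-121965443) are on the minus strand. Capitals mark CACCC, the core bound by KLF proteins, on either strand (GGGTG where it lies on the other), and the MEF2 pattern, CTA and TAG with 4 bases of any kind between them.
Klf2: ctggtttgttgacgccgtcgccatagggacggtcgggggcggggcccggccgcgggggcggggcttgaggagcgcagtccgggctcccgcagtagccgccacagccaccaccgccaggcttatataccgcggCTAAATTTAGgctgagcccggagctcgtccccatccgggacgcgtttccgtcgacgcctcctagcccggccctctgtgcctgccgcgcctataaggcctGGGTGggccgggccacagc
Cxcr4: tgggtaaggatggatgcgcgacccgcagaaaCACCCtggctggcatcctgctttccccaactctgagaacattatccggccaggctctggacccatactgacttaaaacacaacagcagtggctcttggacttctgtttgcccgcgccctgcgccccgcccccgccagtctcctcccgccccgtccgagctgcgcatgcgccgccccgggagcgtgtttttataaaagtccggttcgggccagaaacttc
Gpr183: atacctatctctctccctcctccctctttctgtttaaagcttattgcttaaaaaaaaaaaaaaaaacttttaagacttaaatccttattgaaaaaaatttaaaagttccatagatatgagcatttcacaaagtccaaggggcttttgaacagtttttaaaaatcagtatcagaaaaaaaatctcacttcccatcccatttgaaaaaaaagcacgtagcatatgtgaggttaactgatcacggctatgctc
G and C made up 71.2% of the *Klf2* window, 61.2% of the *Cxcr4* window and 32% of the *Gpr183* window, against a median of 52.4% over all windows. CACCC was found once each in *Klf2*, *Cxcr4* and *S1pr4*, at 2 places in *S1pr3* and not in *Gpr183* or in either window of *Ccr6*, and 52.0% of 32851 windows of this length hold it. The MEF2 pattern was found once, in *Klf2* at bases -118 to -109 from the start site, and 3.20% of windows hold it. The other patterns searched on both strands were GTAAACA, bound by FOXO proteins, which was in no window of these genes and in 3.17% of all windows, and a loose NF-κB pattern, GGG and CC with any 5 bases between them, which had 5 partly overlapping matches in *Klf2* and 3 in the second *Ccr6* window and was in 45.8% of all windows. *S1pr1*, *Ccr7* and *Cxcr5* had no entry in the promoter table. The bases after the *Cxcr4*, *S1pr3* and *S1pr4* start sites were not found as such in a GENCODE transcript of the gene, so that these start sites rest on RefSeq alone.

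*Zbtb24* itself was lower in B-CKO cells at every time. It was at 49.6, 49.6 and 37.05 FPKM in the 3 control mice and at 14.3, 10.5 and 12.6 FPKM in the 3 B-CKO mice at 0 h. The genotypes did not overlap at 24 h and 48 h either, with means of 10.9 against 17.6 FPKM and of 10.4 against 15.2 FPKM. The log2 fold changes of *Zbtb24* were -1.78, -0.64 and -0.50 (limma adjusted p = 0.1198, 0.0586 and 0.267). It was called at 0 h in 3 alternatives (with genes filtered at a mean of 1 FPKM, limma adjusted p = 0.0476), at 24 h in 4 (limma adjusted p = 0.00278 with that filter) and at 48 h in 1 (limma adjusted p = 0.0333 with the filter and the replicate block). Fragments of the remaining exons still count towards these values. Replicate 1 at 0 h was the low library for *Ccr7* and *Cxcr4* and the high one for *S1pr3* and *S1pr4* in both genotypes. Of the 9 genes, replicate 1 lay outside replicates 2 and 3 for 6 in control and 7 in B-CKO cells, and of 12 immediate early genes for 8 and 10, some higher and some lower, a position that any 1 of 3 libraries holds for many genes. The median SD between replicates was 0.169 (control) and 0.158 (B-CKO) on the log2 scale at 0 h, against 0.0563 and 0.0545 at 24 h, and genotype differences at 0 h have wider intervals. Markers of B cells (6 genes) summed to between 3638 and 4843 FPKM at 0 h, and those of T cells (9 of 10 listed genes in the table), which also express *Klf2*, *S1pr1* and *Ccr7*, to between 26.0 and 39.1 FPKM, most of it *Lck*, with the other 8 genes at 8.18 to 17.3 FPKM. At 0 h the summed markers of NK cells (2.54 to 3.42 FPKM), myeloid cells (4.45 to 10.7 FPKM), erythroid cells (11.7 to 71.1 FPKM) and endothelial and stromal cells (0.31 to 0.67 FPKM) were low as well.

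**Figure D1:**
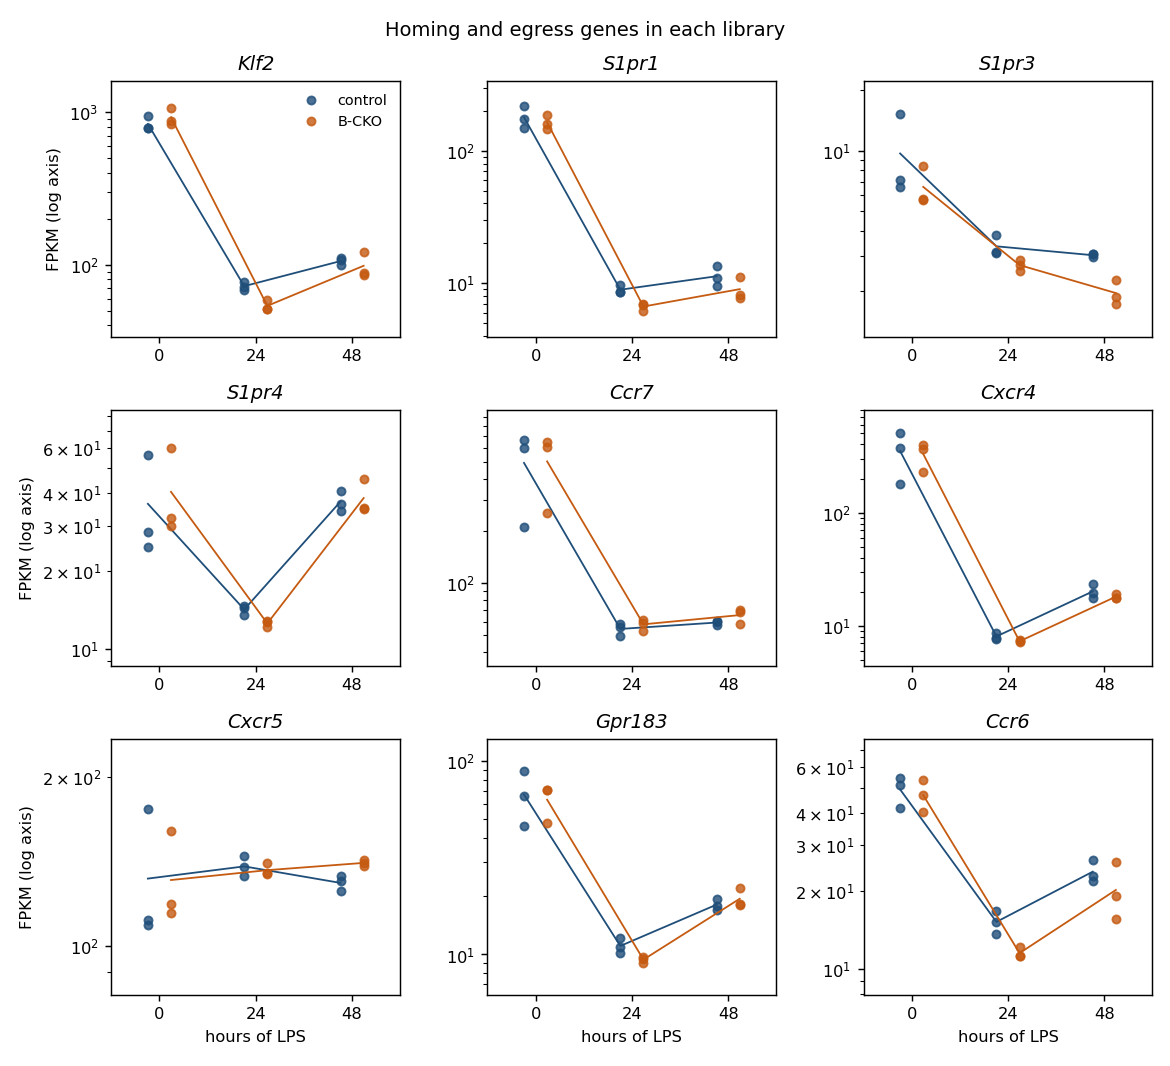
FPKM on a log axis against hours of LPS for each of the 9 genes. Points are libraries (1 mouse each, 3 per group), lines join group means, and blue and orange stand for control and B-CKO. All genes but Cxcr5 are lower at 24 h than at 0 h, and S1pr4 is back near its 0 h level at 48 h.

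At 0 h *Klf2* had the highest level per length of the 9 genes and *S1pr3* the lowest. The 0 h cells are not called resting here, since the 12 immediate early genes summed to between 3553 and 5273 FPKM in them. Mean levels in control cells at 0 h were 838 FPKM for *Klf2*, 492 for *Ccr7*, 350 for *Cxcr4*, 179 for *S1pr1*, 132 for *Cxcr5*, 67.0 for *Gpr183*, 49.2 for *Ccr6*, 36.4 for *S1pr4* and 9.68 for *S1pr3*. In this order the ranges of *Ccr7* and *Cxcr4*, of *Cxcr4* and *S1pr1*, of *S1pr1* and *Cxcr5*, of *Gpr183* and *Ccr6*, and of *Ccr6* and *S1pr4* overlapped. After 24 h of LPS *Cxcr5* led in both genotypes, with means of 139 (control) and 137 FPKM (B-CKO), followed by *Klf2* (72.3 FPKM) and *Ccr7* (54.5 FPKM) in control cells and by *Ccr7* (57.9 FPKM) and *Klf2* (53.7 FPKM), whose ranges overlapped, in B-CKO cells. *S1pr3* stayed the lowest at all times.

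Which of these genes changed during the first 24 h of LPS was asked in each genotype separately. In control cells 8 of the 9 genes fell, all but *Cxcr5*, where 30.7% of the 15531 genes tested were called lower and 57.4% in either direction (limma on log2(FPKM + 1), Benjamini-Hochberg adjusted p under 0.05). In B-CKO cells the same 8 fell, where 32.3% of 15551 genes were called lower and 59.8% in either direction. For these 8 genes all mice at 24 h lay below all mice at 0 h in both genotypes, a pattern found in 34.9% of all genes in control and 35.7% in B-CKO cells. The median log2 fold change of the 9 genes was -2.45 in control and -2.60 in B-CKO cells, against -0.02 over all genes tested in each. In bulk RNA, fewer cells of a type and less RNA of a gene per cell cannot be told apart. FPKM are scaled to the mapped reads of the library, so a change in the total RNA per cell cannot be told apart from these either. This holds for falling genes and for the level *Cxcr5*. The summed B cell markers were lower as well, between 1925 and 2228 FPKM at 24 h, those of marginal zone B cells (6 genes) went from between 305 and 410 to between 74.0 and 97.8 FPKM, those of follicular B cells (2 of 3 listed genes in the table) from between 502 and 806 to between 88.9 and 119 FPKM, and the 12 immediate early genes from between 3553 and 5273 to between 214 and 261 FPKM. T cell markers other than *Lck* summed to 2.08 to 3.11 FPKM at 24 h, with *Lck* at means of 12.02 (control) and 8.90 FPKM (B-CKO). The part of these shifts in the results was not tested.

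*Klf2* was at 787, 941 and 788 FPKM in the 3 control mice at 0 h and at 77.5, 67.9 and 71.6 FPKM at 24 h, an 11.6-fold fall of the mean. In B-CKO cells it was at 840, 1061 and 882 FPKM at 0 h and at 58.9, 51.05 and 51.2 FPKM at 24 h, a 17.3-fold fall. The log2 fold change was -3.51 (SE 0.092, limma adjusted p = 5.17e-06) in control and -4.08 (SE 0.11, limma adjusted p = 2.39e-06) in B-CKO cells.

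Among the S1P receptors, *S1pr1* fell the most. It was at 148, 173 and 216 FPKM at 0 h and at 8.57, 8.59 and 9.60 FPKM at 24 h in control mice. In B-CKO mice it was at 145, 160.4 and 185 FPKM and at 7.00, 6.13 and 6.84 FPKM. These are falls of 20.1-fold in control (log2 fold change -4.16, SE 0.14, limma adjusted p = 6.51e-06) and 24.6-fold in B-CKO cells (-4.42, SE 0.10, limma adjusted p = 2.24e-06). *S1pr4*, a receptor of hematopoietic cells, was at 56.3, 28.25 and 24.7 FPKM at 0 h and at 14.6, 13.6 and 14.4 FPKM at 24 h in control mice. In B-CKO mice *S1pr4* went from 59.6, 29.8 and 32.2 FPKM to 12.7, 12.1 and 12.8 FPKM. Replicate 1 was the high library at 0 h in both genotypes, and the groups did not overlap across time. The log2 fold change of *S1pr4* was -1.21 in control (SE 0.29, limma adjusted p = 0.0127) and -1.55 in B-CKO cells (SE 0.25, limma adjusted p = 0.00200). *S1pr3*, known for expression on marginal zone B cells, was at 15.3, 7.17 and 6.59 FPKM at 0 h and at 3.10, 3.14 and 3.81 FPKM at 24 h in control mice. In B-CKO mice *S1pr3* was at 8.35, 5.78 and 5.70 FPKM and at 2.53, 2.87 and 2.71 FPKM. Its fall was 2.89-fold in control (log2 fold change -1.21, SE 0.30, limma adjusted p = 0.0135) and 2.45-fold in B-CKO cells (-1.02, SE 0.15, limma adjusted p = 0.00127).

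Of the chemokine receptors, *Cxcr4* fell furthest of all 9 genes. *Cxcr4* was at 178, 372 and 500.3 FPKM at 0 h and at 7.81, 7.71 and 8.64 FPKM at 24 h in control mice. In B-CKO mice it was at 229, 365 and 395 FPKM and at 7.43, 7.31 and 7.14 FPKM. The mean fell 43.5-fold in control (log2 fold change -5.16, SE 0.36, limma adjusted p = 5.92e-05) and 45.2-fold in B-CKO cells (-5.28, SE 0.20, limma adjusted p = 4.78e-06), and without replicate 1 at 0 h the log2 fold changes were -5.58 and -5.52. *Ccr7* was at 209, 598 and 669 FPKM at 0 h and at 55.55, 58.4 and 49.6 FPKM at 24 h in control mice. In B-CKO mice *Ccr7* went from 252, 604 and 650.2 FPKM to 61.5, 59.0 and 53.3 FPKM. Replicate 1 was the low library at 0 h in both genotypes, yet lay above all libraries at 24 h. The log2 fold change of *Ccr7* was -2.99 in control (SE 0.43, limma adjusted p = 0.00135) and -2.98 in B-CKO cells (SE 0.36, limma adjusted p = 0.000459). *Ccr6*, the receptor of CCL20, was at 51.1, 41.9 and 54.65 FPKM at 0 h and at 16.8, 13.6 and 15.2 FPKM at 24 h in control mice. In B-CKO mice *Ccr6* was at 46.7, 40.3 and 53.5 FPKM and at 11.2, 11.2 and 12.1 FPKM. These are falls of 3.24-fold (log2 fold change -1.63, SE 0.12, limma adjusted p = 7.76e-05) and 4.07-fold (-1.93, SE 0.11, limma adjusted p = 1.73e-05).

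*Cxcr5* was the one gene of the 9 that was not called at any time against 0 h. *Cxcr5* was at 111, 175 and 109 FPKM at 0 h and at 145, 138 and 133 FPKM at 24 h in control mice. In B-CKO mice it was at 119, 159.9 and 114 FPKM and at 140.4, 135 and 134 FPKM. Replicate 2 was high at 0 h in both genotypes, and the groups overlapped across time. The log2 fold change was 0.11 in control (95% interval -0.34 to 0.55, limma adjusted p = 0.645) and 0.07 in B-CKO cells (-0.24 to 0.38, limma adjusted p = 0.644). Without replicate 2 at 0 h, *Cxcr5* was called higher at 24 h in both genotypes, by 0.33 (limma adjusted p = 0.00757) in control and 0.22 (limma adjusted p = 0.0118) in B-CKO cells, so that this library decides the call. Both values turned negative when the libraries were rescaled to TPM, a length-scaled unit with the same sum in every library. *Gpr183* fell 6.06-fold in control, from 66.0, 88.9 and 46.2 FPKM to 12.2, 10.15 and 10.9 FPKM. In B-CKO mice *Gpr183* fell 6.71-fold, from 70.9, 70.8 and 47.6 FPKM to 9.47, 9.02 and 9.73 FPKM. The log2 fold changes were -2.45 (SE 0.23, limma adjusted p = 0.000196) and -2.60 (SE 0.16, limma adjusted p = 2.50e-05).

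**Figure D2:**
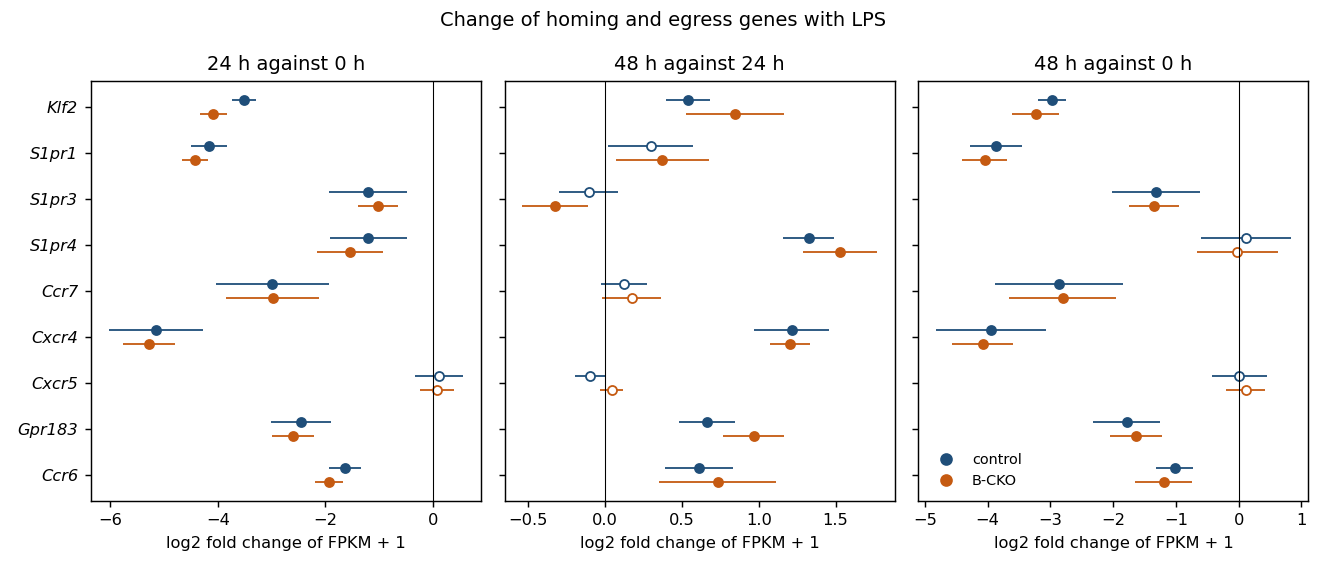
Log2 fold change of FPKM + 1 (x axis) of each gene for 24 h against 0 h, 48 h against 24 h and 48 h against 0 h, with its 95% interval from limma, in control (blue) and B-CKO (orange) cells, 3 mice per group. Filled points have an adjusted p under 0.05. In the first panel all 8 genes but Cxcr5 lie left of 0, and in the second S1pr4 and Cxcr4 lie furthest right.

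Between 24 h and 48 h most of the genes that had fallen rose, with the largest log2 rises in *S1pr4* and *Cxcr4*. In control cells 5 of the 9 genes rose (*Klf2*, *S1pr4*, *Cxcr4*, *Gpr183* and *Ccr6*) and none fell, where 20.1% of 15178 genes were called higher and 44.9% in either direction. In B-CKO cells 6 rose, these 5 and *S1pr1*, where 21.7% of 15253 genes were called higher, and *S1pr3* fell, where 24% were called lower and 45.7% in either direction. *S1pr4* rose to 36.5, 34.0 and 41.0 FPKM in control mice, by 1.32 on the log2 scale (SE 0.070, limma adjusted p = 3.94e-05), and to 34.8, 34.95 and 45.3 FPKM in B-CKO mice, by 1.53 (SE 0.10, limma adjusted p = 4.89e-05). *Cxcr4* rose to 17.6, 19.45 and 23.3 FPKM in control and to 17.5, 17.5 and 19.3 FPKM in B-CKO mice, by 1.21 and 1.201 on the log2 scale, and remained far below its 0 h level. *Klf2* was at 107, 99.1 and 111 FPKM in control and at 88.9, 85.4 and 121 FPKM in B-CKO mice, rises of 0.54 (SE 0.061, limma adjusted p = 0.000537) and 0.85 (SE 0.13, limma adjusted p = 0.00208). *Gpr183* rose 1.64-fold in control and 2.06-fold in B-CKO cells, and *Ccr6* rose 1.56-fold and 1.75-fold.

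Part of the markers of B cells and their subsets, and of the immediate early genes, also rose over this interval. In B-CKO cells 4 of 6 B cell markers, 5 of 6 marginal zone markers, 2 of 2 follicular markers tested and 6 of 12 immediate early genes were called higher, and in control cells 3, 2, 2 and 5 of them were. In each genotype 1 B cell marker, 1 marginal zone marker and 2 immediate early genes were called lower. The B cell sum went from 1925 to 1989 FPKM at 24 h to 2257 to 2537 FPKM at 48 h in B-CKO mice, and from 2064 to 2228 FPKM to 2161 to 2333 FPKM in control mice, where the times overlapped. The immediate early sum went from 214 to 235 FPKM to 334 to 384 FPKM in B-CKO mice and from 245 to 261 FPKM to 347 to 357 FPKM in control mice. The part of these changes in the rise of the homing and egress genes was not tested.

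The calls of *S1pr1* and *S1pr3* in this interval were close to the threshold. *S1pr1* was at 10.9, 9.51 and 13.4 FPKM in control and at 8.19, 7.77 and 11.1 FPKM in B-CKO mice at 48 h. Its log2 fold change was 0.30 in control (limma adjusted p = 0.0777) and 0.37 in B-CKO cells (limma adjusted p = 0.0493). With the replicate number as a block, the control value passed too (limma adjusted p = 0.0369). The B-CKO call was lost under TPM scaling (limma adjusted p = 0.0515), under median ratio scaling (limma adjusted p = 0.0520), in a single fit of all 18 libraries (limma adjusted p = 0.0764) and without any of 5 of the 6 libraries. *S1pr3* went from 2.70 to 1.96 FPKM in B-CKO cells, a log2 fold change of -0.32 (limma adjusted p = 0.0227). This call was lost in the single fit of all 18 libraries (limma adjusted p = 0.317) and without any of 4 of the 6 libraries. *Ccr7* was at 57.2, 60.9 and 59.9 FPKM in control and at 67.9, 58.5 and 70.0 FPKM in B-CKO mice at 48 h, which overlapped the values at 24 h. Over these 9 genes, 5 to 6 were called in control cells and 5 to 8 in B-CKO cells when each library was left out in turn. Over all genes, the calls then ran from 5739 of 15024 to 6404 of 15016 in control cells. In B-CKO cells they ran from 5705 of 15105 to 7124 of 15085.

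At 48 h 7 of the 9 genes were below their 0 h level in each genotype, all but *S1pr4* and *Cxcr5*, where 30.3% of 15584 genes in control and 30.7% of 15695 genes in B-CKO cells were called lower. *S1pr1* was at 6.30% of its 0 h mean in control and 5.501% in B-CKO cells, *Cxcr4* at 5.75% and 5.49%, *Klf2* at 12.6% and 10.6%, and *Ccr7* at 12.1% and 13.0%. *Gpr183* was at 27.0% and 30.8%, *S1pr3* at 31.3% and 29.7%, and *Ccr6* at 48.2% and 43.1%. *S1pr4* was at 102% and 94.6%, with log2 fold changes of 0.12 (95% interval -0.59 to 0.83) and -0.02 (-0.66 to 0.62). Without replicate 1 at 0 h, *S1pr4* was called higher at 48 h than at 0 h in control cells (0.47, limma adjusted p = 0.0115) and was at 0.29 in B-CKO cells (limma adjusted p = 0.116). *Cxcr5* was at 125, 133 and 131 FPKM in control and at 142, 141 and 139 FPKM in B-CKO mice at 48 h, and without replicate 2 at 0 h it was called higher than at 0 h in control (0.23, limma adjusted p = 0.0266) and in B-CKO cells (0.27, limma adjusted p = 0.0129).

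**Figure D3:**
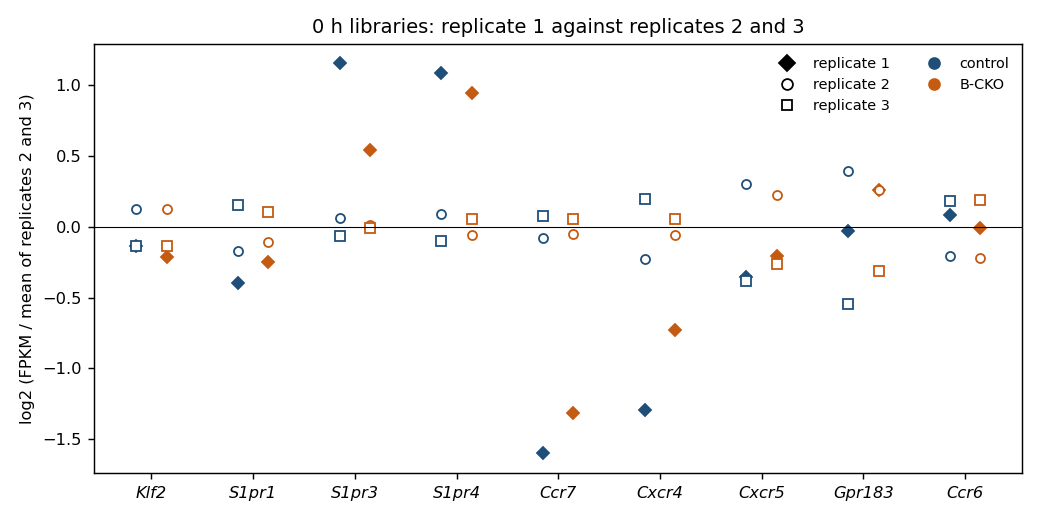
Log2 of FPKM at 0 h over the mean of replicates 2 and 3 of the same genotype (y axis) for each gene. Filled diamonds are replicate 1, open circles replicate 2 and open squares replicate 3, in blue (control) and orange (B-CKO). Replicate 1 lies low for Ccr7 and Cxcr4 and high for S1pr3 and S1pr4 in both genotypes.

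Whether loss of *Zbtb24* in B cells alters these genes was asked at each time. At 0 h none of the 9 genes was called between genotypes, where 0% of 15641 genes were called and 2% had an unadjusted p under 0.05, none of them among the 9. The groups overlapped for all 9 genes, while they did not for 3.87% of all genes. Same-numbered control and B-CKO libraries were correlated at 0 h (r of 0.854, 0.468 and 0.789). Within all 3 pairs, *Klf2* and *S1pr4* were higher in B-CKO cells, and *S1pr1*, *S1pr3* and *Ccr6* were lower. *Ccr7*, *Cxcr4*, *Cxcr5* and *Gpr183* went both ways. With the replicate number as a block none of the 9 genes was called. The share of all genes with 1 direction in all pairs is not given. The log2 fold changes (B-CKO minus control) ran from -0.42 for *S1pr3* (95% interval -1.19 to 0.36) to 0.17 for *S1pr4* (-0.75 to 1.10). Both moved when single libraries were left out, and neither was called without any of them. Each such fit leaves a same-numbered library without its partner, so these shifts do not show how the differences within pairs vary. Without control replicate 1, *S1pr3* was at -0.067 and *S1pr4* at 0.53. The direction of *S1pr4* reversed without B-CKO replicate 1 (-0.13) and without control replicate 3 (-0.050). *Klf2* was at 0.14 (-0.18 to 0.47), and the interval of *Ccr7*, -1.26 to 1.42, was the widest. These intervals ignore the pairs. *Ccr7* was at 209, 598 and 669 FPKM in control and at 252, 604 and 650 FPKM in the same-numbered B-CKO libraries. None was called without replicate 1 of both genotypes either, an alternative chosen after seeing the data, and *Klf2* was then at 0.17.

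At 24 h *Klf2*, *S1pr1* and *Ccr6* had the largest genotype differences, and none of the 9 genes was called, where 0.0993% of 15104 genes were. The mean of *Klf2* in B-CKO cells was 74.2% of that in control cells, a log2 fold change of -0.42 (95% interval -0.59 to -0.26, limma adjusted p = 0.0790). *S1pr1* was at 74.6% (-0.37, -0.53 to -0.21, limma adjusted p = 0.0903). *Ccr6* was at 75.8% (-0.37, -0.55 to -0.19, limma adjusted p = 0.104). In all, 7 of the 9 genes had every B-CKO mouse below every control mouse, where 11.7% of all genes did, and 6 of the 9 had an unadjusted p under 0.05, where 16.3% did. The other 4 of the 7 were *S1pr4* (-0.17, limma adjusted p = 0.141), *Gpr183* (-0.21, limma adjusted p = 0.202), *S1pr3* (-0.23, limma adjusted p = 0.236) and *Cxcr4* (-0.13, limma adjusted p = 0.319). *Ccr7* (0.09, 95% interval -0.09 to 0.26) and *Cxcr5* (-0.02, -0.11 to 0.06) overlapped between genotypes. The median log2 fold change of the 9 genes was -0.21, and that of all genes was -0.00464. The shares of all genes given here include genes with a mean below 1 FPKM. When only genes whose mean reached 1 FPKM were tested, 2201 of 9711 had an unadjusted p under 0.05. The 9 genes were measured in the same libraries, so counts over them are not separate observations.

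The call at 24 h depended on the filter. When only genes whose mean reached 1 FPKM were tested, *Klf2* (limma adjusted p = 0.0128), *S1pr1* (limma adjusted p = 0.0159) and *Ccr6* (limma adjusted p = 0.0215) were called, while 388 of all 9711 genes were, and over all alternatives their adjusted p ranged from 0.00191 to 0.594, from 0.0143 to 1 and from 0.0183 to 1, respectively. The direction of all 3 was lower in B-CKO cells under every alternative run. Other gene groups also lay lower in B-CKO cells at this time, without overlap between genotypes: the summed B cell markers (1925 to 1989 against 2064 to 2228 FPKM), marginal zone B cell markers (74.0 to 81.1 against 84.0 to 97.8 FPKM), follicular B cell markers (88.9 to 101 against 102 to 119 FPKM) and immediate early genes (214 to 235 against 245 to 261 FPKM). The T cell marker sum was lower as well (10.3 to 12.3 against 13.4 to 15.7 FPKM). This lay in *Lck* (8.24 to 9.31 against 11.2 to 13.3 FPKM), while the other 8 T cell markers overlapped (2.08 to 3.11 against 2.14 to 2.40 FPKM), and the median log2 fold change of the 9 T cell markers was 0.037. The part of these shifts in the result was not tested.

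At 48 h the genotypes overlapped for *Klf2*, *S1pr1* and *Ccr6*, and none of the 9 genes was called, where 0.046% of 15210 genes were. *Klf2* was at 93.1% of control (-0.12, 95% interval -0.42 to 0.19), *S1pr1* at 79.9% (-0.30, -0.67 to 0.07) and *Ccr6* at 85.0% (-0.25, -0.64 to 0.15). The overlap of these 3 genes came from B-CKO replicate 3, the highest of its group. Without that library *Klf2* was at -0.27 (limma adjusted p = 0.385), *S1pr1* at -0.44 (limma adjusted p = 0.566) and *Ccr6* at -0.43 (limma adjusted p = 0.489). Other libraries moved the differences the other way. *Klf2* was at -0.025 without B-CKO replicate 2, *S1pr1* at -0.18 without control replicate 3 and *Ccr6* at -0.088 without B-CKO replicate 1. *S1pr3* was at 3.06, 2.96 and 3.06 FPKM in control and at 1.73, 2.28 and 1.88 FPKM in B-CKO mice. All B-CKO mice lay below all control mice for *S1pr3* (-0.45, SE 0.089, limma adjusted p = 0.243), where 6.24% of all genes did, and above them for *Cxcr5* (0.12, SE 0.038, limma adjusted p = 0.480), where 4.89% did. These 2 were the only ones of the 9 with an unadjusted p under 0.05, where 7.71% of genes had one. The summed levels of 3 marker lists were also lower in all B-CKO than in all control mice at 48 h. The marginal zone B cell sum was 83.9 to 93.7 FPKM in B-CKO and 96.9 to 103.7 FPKM in control mice, the T cell sum 9.84 to 10.95 against 13.8 to 14.2 FPKM and the myeloid sum 3.72 to 5.16 against 5.41 to 7.06 FPKM. Without *Lck* the T cell sum overlapped between genotypes, as did the myeloid sum without *Itgam*. The erythroid sum was higher in all B-CKO mice, at 11.55 to 16.3 against 9.67 to 9.93 FPKM. This lay in *Hbb-bt* (means of 13.2 against 9.31 FPKM). The other 5 erythroid markers overlapped, at 0 to 0.24 FPKM in B-CKO against 0.03 to 1.27 FPKM in control mice. The part of these markers in the *S1pr3* difference was not tested.

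**Figure D4:**
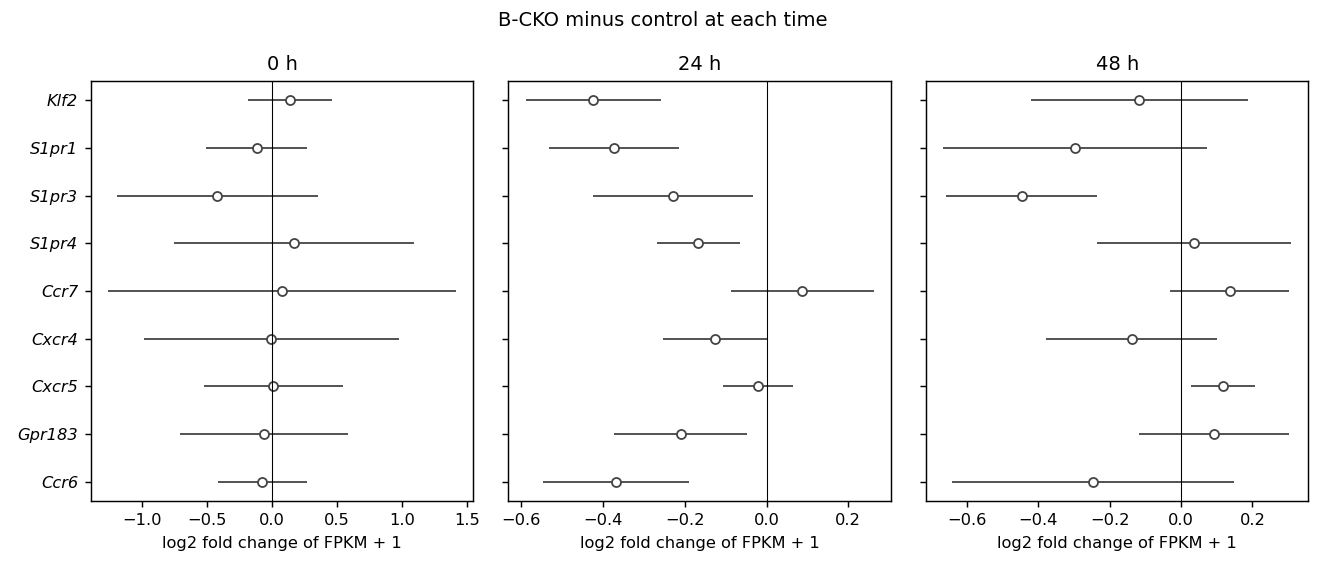
Log2 fold change of FPKM + 1, B-CKO minus control (x axis), with its 95% interval from limma, for each gene at 0 h, 24 h and 48 h (3 mice per genotype and time). The 3 panels have different x scales. All points are open, since none had an adjusted p under 0.05. At 24 h Klf2, S1pr1 and Ccr6 lie between -0.42 and -0.37.

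Whether the response to LPS differed between genotypes was tested as an interaction in 12 libraries. None of the 9 genes was called for the change from 0 h to 24 h or for that from 24 h to 48 h, where 0% of 16182 and 0% of 15844 genes were. The interaction of *Klf2* was -0.57 on the log2 scale (SE 0.15, limma adjusted p = 1), the only one of the 9 with an unadjusted p under 0.05 in that interval, where 2.89% of genes had one. From 24 h to 48 h, *Gpr183* (0.30, SE 0.12, limma adjusted p = 0.646) and *Cxcr5* (0.14, SE 0.050, limma adjusted p = 0.611) had an unadjusted p under 0.05, where 7.31% of genes did. Interactions share their 24 h libraries with the genotype differences above.

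Other genes of the same pathways were taken from 5 lists, whose counts stand against 30.7% of all genes called lower and 57.4% in either direction from 0 h to 24 h in control cells. Among 24 other S1P and chemokine receptors and related receptors, 14 fell and none rose from 0 h to 24 h in control cells, with a median log2 fold change of -0.32. *P2ry10* was at 88.0, 243 and 253 FPKM at 0 h and at 24.4, 20.8 and 22.3 FPKM at 24 h, and *Cnr2*, a cannabinoid receptor that takes part in B cell positioning, went from 66.7, 57.5 and 69.2 FPKM to 9.79, 9.59 and 9.72 FPKM. *Ackr3*, a scavenger receptor for CXCL12, fell by 2.20 on the log2 scale (limma adjusted p = 0.000104). Among 10 ligands, of which 7 were in the table and 6 tested, 3 rose and 2 fell. *Ccl22*, a chemokine that attracts CCR4-bearing T cells, rose from 0.10, 0.18 and 0.29 FPKM to 13.9, 21.5 and 22.6 FPKM. *Ccl3* and *Ccl4* fell by 2.68 and 2.70 on the log2 scale.

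Of 12 genes of S1P and oxysterol metabolism in the table, 1 rose and 6 fell in control cells from 0 h to 24 h (median -0.34), a share called that is near the 57.4% of all genes. *Spns2*, an S1P exporter, went from 21.2, 23.1 and 18.2 FPKM to 2.13, 1.77 and 1.92 FPKM, and *Cyp27a1*, a sterol hydroxylase, from 12.7, 9.34 and 11.3 FPKM to 0.51, 0.28 and 0.34 FPKM. *Plpp1*, a lipid phosphatase that acts on S1P outside the cell, was the 1 that rose, by 3.30 on the log2 scale (limma adjusted p = 7.08e-06). Of 24 genes of receptor signalling and desensitisation, 4 rose and 16 fell (median -0.44, with 30.7% of all genes called lower), among them *Cd69*, whose protein takes S1PR1 off the cell surface, which went from 174, 315 and 195 FPKM to 25.9, 23.97 and 22.5 FPKM. *Plcb2* and *Arrb1* fell by 1.96 and 1.88 on the log2 scale. Of 17 genes of KLF2 control and related KLFs, 13 fell and none rose (median -1.38), with *Klf4* at 58.2, 164 and 121 FPKM at 0 h and at 0.23, 0.25 and 0.11 FPKM at 24 h. *Klf6* fell by 4.88 and *Klf9* by 2.20 on the log2 scale, and without control replicate 1 at 0 h *Klf9* was at -2.80. The same lists gave 15, 2, 8, 17 and 14 falling genes in B-CKO cells, where 32.3% of all genes were called lower. The median over all genes in control cells was -0.02, and no gene of the 5 lists was called between genotypes at any time.

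Across the 18 libraries *Klf2*, *S1pr1*, *Cxcr4*, *Gpr183*, *Ccr7* and *Ccr6* had similar profiles, and *S1pr4* was less like them. The Pearson r of log2(FPKM + 1) was 0.990 between *Klf2* and *S1pr1*, 0.988 between *Klf2* and *Cxcr4*, 0.9745 between *Klf2* and *Gpr183*, 0.951 between *Klf2* and *Ccr7*, 0.950 between *Klf2* and *Ccr6* and 0.836 between *Klf2* and *S1pr3*. *S1pr4* had an r from 0.345 (*Ccr7*) to 0.706 (*Ccr6*) with the other genes that fell, and *Cxcr5* an r of -0.18 with *Klf2*. These are descriptions, since the points share libraries, depth and the step from 0 h to cultured cells. Among 9997 genes, those most alike to *Klf2* were *Cd74*, *Btg1* and *H2-DMb1* (r of 0.997 each), to *S1pr1* *Snx29*, *Cebpb* and *Zfp831* (0.996 each), and to *Ccr7* *P2ry10*, *Nr4a2* and *Per1* (0.994 to 0.997). For *Cxcr4* they were *Ypel5*, *Mtss1* and *Ets1* (0.996 to 0.997), for *Gpr183* *Rasgrp2*, *Fmnl1* and *H2-D1* (0.990 to 0.992), and for *Ccr6* *Gpat3*, *Pltp* and *AB124611* (0.986 to 0.990). For *S1pr4* they were *Ehmt2*, *Fam3a* and *Mindy2* (0.961 to 0.967), and for *S1pr3* *Slc29a3*, *0610030E20Rik* and *Gga3* (0.962 to 0.972). *Cxcr5* had no close match, with *Anapc16*, *Fkbp5* and *Wdr92* at 0.721 to 0.765.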

How the data were processed

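The authors deposited FPKM values (fragments scaled to transcript length and mapped reads) for 18 libraries of 1 mouse each, made, per the study's methods, with bowtie2, Cufflinks and RSEM on mm10. The submitters' processing notes also name BWA and DESeq2, and versions are not given in the sources used here. Symbols were matched through RefSeq for 16512 of 16545 gene IDs.

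From these values log2(FPKM + 1) was tested with limma 3.58.1 (R 4.3.3; lmFit, eBayes with a trend) over genes above 0 FPKM in any library of the fit, with only the compared groups in it, Benjamini-Hochberg adjustment over all genes tested and a threshold of 0.05. DESeq2, the test of the authors, needs counts and was not run. Changes of low genes are understated on this scale, and folds quoted as such are ratios of mean FPKM. The 9 genes and all lists were chosen with earlier results of these data known. Named list genes are the 3 with the largest change among those called in control cells at 24 h with a mean of at least 1 FPKM, and the 3 genes most correlated with each of the 9. *Lck* and *Hbb-bt* were named after their values were seen. A further gene is not reported here and was left out of the marker sums.

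The depth in fragments is unknown: 41 of 1504 low genes (2.73%) had values in whole steps, within 0.12 of a step, and the depth derived from them changed with the settings tried. The fits were tested on simulated data with 200 changed genes of 16545. With each group's own SD, 10.2% to 27.1% of calls were false, above the nominal 5% in all 11 comparisons. A simulation with 1 SD per gene, added after seeing this, gave 3.09% to 9.87%, above 5% in 9 of 11, so that more calls may be false than the adjusted p states. The time comparisons called 44.9% to 59.8% of genes, far more than were changed in the simulations. The simulated shares of false calls need not carry over to them.

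Deviations from the group means of same-numbered control and B-CKO libraries correlated at 0.854, 0.468 and 0.789 at 0 h, so the numbers pair libraries there, with no label that explains a number. Across times a number was read as the same mouse, which no label states, and the same correlations were only -0.087 to 0.187. Alternatives were a pseudocount of 0.1, a filter at a mean of 1 FPKM, TPM scaling, median ratio scaling, the replicate block with and without that filter, a single fit of all 18 libraries and leaving out each library. Leaving out replicate 1 of both genotypes was added after seeing the data. Figures were drawn with matplotlib 3.10.9.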

Additional observations from a re-analysis of the deposited data

Results flagged for a closer look

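The values of *Cxcr5* at 48 h were below those at 24 h for all 3 control replicate numbers, at 0.866, 0.962 and 0.981 of them, and above for all 3 B-CKO numbers, at 1.01, 1.04 and 1.03 of them. The interaction was 0.14 on the log2 scale (SE 0.050) and did not pass the threshold after adjustment over all genes (limma adjusted p = 0.611, between 0.408 and 1 over the alternatives run). Neither change over time was called by itself (limma adjusted p = 0.102 in control and 0.334 in B-CKO cells). Under TPM scaling the value was negative in both genotypes, at -0.14 in control (limma adjusted p = 0.0384) and -0.011 in B-CKO cells.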

How the results depend on the processing

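Of 102 results for single genes, none that was called changed direction under any alternative. The 16 that did were uncalled and at most 0.17 in size on the log2 scale. Between genotypes at 24 h, 3 of the 9 genes were called with a mean of at least 1 FPKM required and 4 with the replicate block added to it (*Klf2*, *S1pr1*, *Ccr6* and *S1pr4*), while that filter moved the calls over all genes from 15 to 388, and to 704 with the block. The replicate block alone called 0 of the 9 at each time and in both interactions, 8, 6 and 7 in control and 8, 7 and 7 in B-CKO cells (24 h against 0 h, 48 h against 24 h, 48 h against 0 h), where it called 54.8%, 41.8% and 53.9% of all genes in control, 57.3%, 42.8% and 55.6% in B-CKO cells, and at most 0.0331% between genotypes. TPM scaling turned *Cxcr5* at 0 h between genotypes (-0.0024), in control at 24 h (-0.060) and 48 h (-0.20) against 0 h, and in B-CKO at 24 h (-0.092) and 48 h (-0.10) against 0 h and 48 h against 24 h (-0.011), and *S1pr4* in control at 48 h against 0 h (-0.085). Median ratio scaling turned *Cxcr4* between genotypes at 0 h (0.012) and *S1pr4* in B-CKO at 48 h against 0 h (0.028). Without replicate 1 of both genotypes at 0 h, *Ccr7* was at -0.014 and *Cxcr5* at -0.032. Leaving out each library in turn, the genotype difference at 0 h ran from -0.24 to 0.028 for *S1pr1*, -0.13 to 0.53 for *S1pr4*, -0.45 to 0.52 for *Ccr7*, -0.43 to 0.32 for *Cxcr4*, -0.14 to 0.23 for *Cxcr5*, -0.30 to 0.17 for *Gpr183* and -0.18 to 0.029 for *Ccr6*. Leaving out 1 library at 0 h also left its same-numbered library without a partner. The genotype difference ran from -0.051 to 0.0086 for *Cxcr5* at 24 h and from -0.086 to 0.11 for *S1pr4* at 48 h. Over time, *Cxcr5* ran from -0.011 to 0.33 (control, 24 h against 0 h), -0.11 to 0.23 (control, 48 h against 0 h) and -0.015 to 0.22 (B-CKO, 24 h against 0 h), and *S1pr4* from -0.10 to 0.47 (control) and -0.20 to 0.29 (B-CKO) at 48 h against 0 h. The cause of these shifts was not tested. With 3 mice per group and no fragment counts, counting error cannot be separated from the spread between mice.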
